A study of Mus musculus with 2 samples.

Results

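The miR-15, miR-16, miR-195 and miR-497 family is a group of mature microRNAs that includes miR-322, the mouse counterpart of human miR-424. It was followed in small RNA libraries of mouse liver. Its 8 members were taken by name from 2 deposited tables: mmu-miR-16-5p, mmu-miR-15a-5p, mmu-miR-15b-5p, mmu-miR-195a-5p, mmu-miR-497a-5p and mmu-miR-322-5p, which are 5p strands, and mmu-miR-195a-3p and mmu-miR-322-3p, which are 3p strands. All 8 were found among the 484 names of the first table (experiment 1) and the 1915 names of the second (experiment 2). The mice were female C57BL/6, wild-type, 8 to 10 weeks old, and all of them took a control Lieber-DeCarli liquid diet for 5 days. The ethanol-fed group then had that diet with 5% (v/v) ethanol for 10 days and a gavage of 6 g/kg ethanol on day 16. The pair-fed group had an isocaloric control diet and a gavage of dextrin-maltose, and all livers were taken 9 h after gavage. The series design text gives 16 days of ethanol feeding instead. Each table holds 1 ethanol-fed and 1 pair-fed library. The sources used here do not say whether a library is 1 animal or a pool. The labels describe 1 sample per group for both tables together, so it is not known from them whether the tables come from separate animals. The paper calls its small RNA sequencing data representative of 2 independent experiments, without matching these to the tables. No spread between animals is known, and no test between groups was made.

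MicroRNAs are cut from hairpin RNAs, and one strand of the cut duplex is usually kept by an Argonaute protein while the other is lost. The kept strand finds messenger RNAs mainly through its seed, bases 2 to 8 from the 5′ end. The miR-15/16 family is known for restraining the cell cycle and for lowering BCL2, an inhibitor of cell death. The miR-15a/16-1 genes were first described in a region lost in chronic lymphocytic leukaemia, and miR-195 has been linked to the time after birth when heart muscle cells stop dividing. miR-16 is also found at high levels in blood cells.

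The sequences of the 6 members that share a seed are given here because the shared seed is what makes them a family. They come from RefSeq (GRCm38.p6), which held all 8 members. The capitals mark the seed.
miR-16-5p: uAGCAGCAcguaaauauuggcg
miR-15a-5p: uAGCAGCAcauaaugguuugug
miR-15b-5p: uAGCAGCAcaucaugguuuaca
miR-195a-5p: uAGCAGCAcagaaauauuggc
miR-497a-5p: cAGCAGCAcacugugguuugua
miR-322-5p: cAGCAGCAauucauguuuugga

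The 6 sequences share the seed AGCAGCA, and over the first 21 positions they are identical at 9, 7 of which are the seed. miR-16-5p and miR-195a-5p are the closest pair, with 19 of 21 positions equal. miR-15a-5p and miR-15b-5p share 18 of 22, whereas miR-16-5p and miR-497a-5p share 11 of 22. The 4 members of the miR-15, miR-16 and miR-195 genes begin with U, and the other two with C. Of the 1679 mature names of the RefSeq table, 10 (0.596%) carry this seed. The 4 outside the family list are miR-195b, miR-6342, miR-6353 and miR-6419. None of these 4 was listed in experiment 1, and all were at 0 in both libraries of experiment 2.

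The 3p strands come from the opposite arms of the hairpins and carry other seeds. They are shown because the levels of these strands are compared within libraries further below.
miR-195a-3p: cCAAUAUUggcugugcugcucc
miR-322-3p: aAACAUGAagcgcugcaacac
miR-16-1-3p: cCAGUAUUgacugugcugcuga
miR-16-2-3p: aCCAAUAUuauugugcugcuuu

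The members lie in 4 gene clusters, positions being given on GRCm38 because the tables hold none and the submitters' notes name the older build mm8. miR-15a-5p (chr14:61632075-61632096, minus strand) and a first copy of miR-16-5p (chr14:61631936-61631957, minus) come from *Mir15a* and *Mir16-1*, which are 54 bp apart within introns of the noncoding gene *Dleu2*. miR-15b-5p (chr3:69009775-69009796, plus) and the second copy of miR-16-5p (chr3:69009918-69009939, plus) come from *Mir15b* and *Mir16-2*, 66 bp apart within introns of *Smc4*, which encodes a condensin subunit. None of the 8 *Dleu2* transcripts and none of the 5 *Smc4* transcripts that span the hairpins has an exon there (GENCODE vM21). miR-497a-5p (chr11:70234730-70234751, plus) and miR-195a-5p (chr11:70235062-70235082, plus) come from *Mir497* and *Mir195a*, 241 bp apart. miR-322-5p (chrX:53054306-53054327, minus) comes from *Mir322*, which lies 200 bp from *Mir503*. No annotated host gene spans the chromosome 11 or X hairpins. Because *Mir16-1* and *Mir16-2* give the identical 5p strand, reads of miR-16-5p cannot be assigned to either gene.

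Experiment 1 holds whole reads on each microRNA, which total 4170601 (pair-fed) and 4311802 (ethanol-fed). Experiment 2 holds reads per 1000000 reads on microRNAs (RPM), with estimated totals of 10812946 and 10820862 reads taken from the step of 0.0925 and 0.0924 RPM in its low values. The lowest value listed there is 0.92 RPM, about 10 reads, so a 0 in experiment 2 can hide fewer reads than that. The liver marker miR-122-5p was present in all 4 libraries but differed between tables, at 2971 (pair-fed) and 2210 RPM (ethanol-fed) in experiment 1 and at 182938 and 156660 RPM in experiment 2. The tables were scaled apart, so ratios are given within a table and levels of the 2 tables are only set side by side. Intervals are 95% Wilson intervals on the reads of 1 library per group, so they cover counting error only. The sources used here mention no molecular identifiers to mark PCR copies. Without them copies count as separate reads, so the intervals may be too narrow even for counting error. In bulk liver, fewer cells of a type and less RNA per cell cannot be told apart.

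Most of the family's reads came from miR-16-5p. In experiment 1 the pair-fed library held 5777 reads of it (1385 RPM) and the ethanol-fed library 6155 (1427 RPM). In experiment 2 it stood at 1437 and 1063 RPM in the same order. miR-16-5p ranked 32nd and 31st of the microRNAs above 0 in experiment 1 and 47th and 51st in experiment 2. It made up 91.4% of the 6 seed-sharing members in the pair-fed library of experiment 1 (interval 90.6% to 92.0%) and 88.9% in the ethanol-fed library (88.2% to 89.7%). In experiment 2 its share was 89.9% (89.4% to 90.3%) and 89.7% (89.2% to 90.2%).

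**Figure D1:**
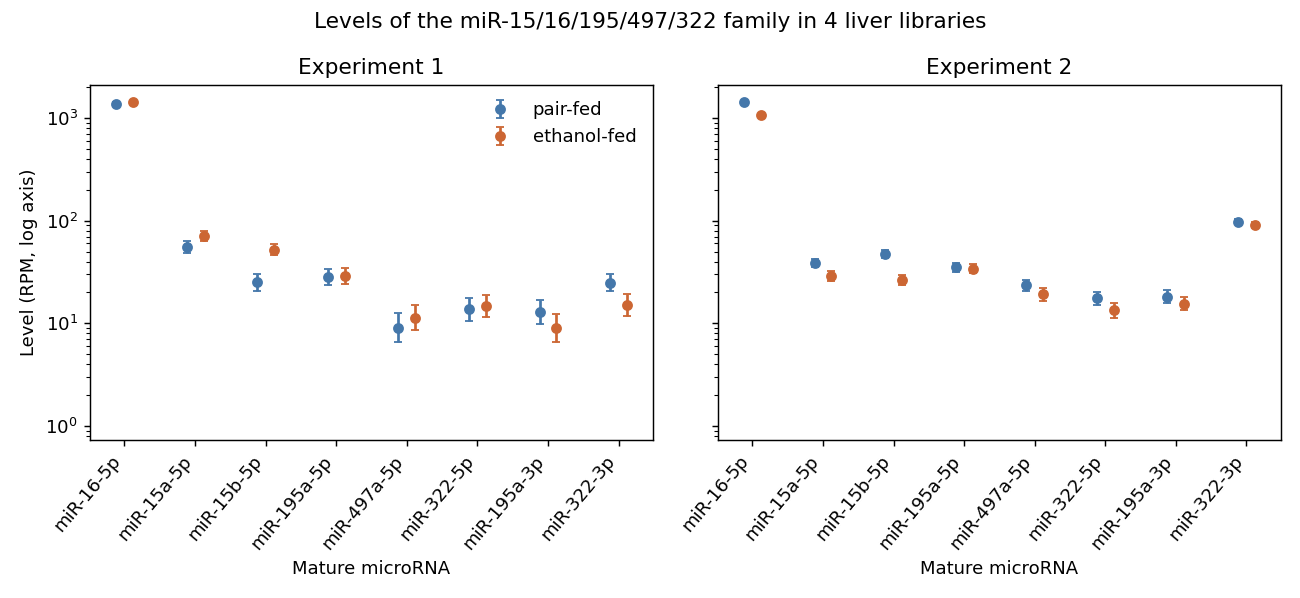
Level of each family member in RPM on a log axis, in the pair-fed (blue) and ethanol-fed (orange) library of each experiment, with 95% Wilson intervals for counting error. miR-16-5p stands between 1063 and 1437 RPM in the 4 libraries and every other member below 100 RPM.

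The other members were far lower, all under 100 RPM. Without ethanol, miR-15a-5p came second in experiment 1 at 55.1 RPM, followed by miR-195a-5p at 28.1, miR-15b-5p at 25.2 and miR-322-3p at 24.9 RPM, whose intervals overlap. miR-322-5p at 13.7, miR-195a-3p at 12.9 and miR-497a-5p at 9.11 RPM came last and also overlap. Among the pair-fed levels of experiment 2, that of miR-322-3p came second at 97.7 RPM. It was followed there by miR-15b-5p at 47.3 RPM, then by miR-15a-5p at 38.7 and miR-195a-5p at 35.1 RPM, which overlap. miR-497a-5p followed at 23.6 RPM, and its interval overlaps that of miR-195a-3p at 18.2 RPM, which in turn overlaps that of miR-322-5p at 17.5 RPM. The order of the members below miR-16-5p therefore depended on the table.

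Ethanol-fed against pair-fed, the family as a seed group was nearly level in experiment 1 and lower in experiment 2. The 6 members with the seed AGCAGCA summed to 1516 RPM (pair-fed) and 1605 RPM (ethanol-fed) in experiment 1, a log2 ratio of 0.08 (0.03 to 0.13). In experiment 2 they summed to 1599 and 1185 RPM, a log2 ratio of -0.43 (-0.46 to -0.40). These sums rank the seed 19th of the seed groups in both libraries of experiment 1, and 27th in the pair-fed and 30th in the ethanol-fed library of experiment 2, among microRNAs with a RefSeq sequence. Without miR-16-5p, the other 5 summed to 131 and 177 RPM in experiment 1 (log2 ratio 0.44, 0.28 to 0.59) and to 162 and 122 RPM in experiment 2 (-0.41, -0.51 to -0.31). Of these 5 members, miR-15b-5p and miR-15a-5p had the highest log2 ratios in experiment 1, and the intervals of the other three include 0.

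miR-15b-5p, from the *Smc4* introns, differed most among the 8 members in both experiments, and in opposite directions. In experiment 1 its pair-fed count was 105 reads (25.2 RPM) and its ethanol-fed count 226 reads (52.4 RPM), 2.07-fold higher (log2 ratio 1.05, 0.72 to 1.39). In experiment 2 the pair-fed level was 47.3 RPM and the ethanol-fed level 26.5 RPM, 0.562-fold (log2 ratio -0.83, -1.04 to -0.62). The ethanol-fed library of experiment 1 and the pair-fed library of experiment 2 were thus the high ones.

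Its close relative miR-15a-5p, from *Dleu2*, had the same signs with smaller differences. It had 230 and 303 reads in experiment 1 (55.1 and 70.3 RPM, log2 ratio 0.35, 0.10 to 0.60) and stood at 38.7 and 29.0 RPM in experiment 2 (-0.41, -0.62 to -0.20). miR-16-5p, which both clusters produce, had a log2 ratio of 0.04 (-0.01 to 0.10) in experiment 1, an interval that includes 0. In experiment 2 its log2 ratio was -0.43 (-0.47 to -0.40), close to that of miR-15a-5p.

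A ratio of 2 microRNAs within a library does not depend on how the library was scaled. The reads of miR-15b-5p over those of miR-15a-5p were 0.457 (pair-fed) and 0.746 (ethanol-fed) in experiment 1, a change of 0.71 on the log2 scale (0.29 to 1.12). In experiment 2 the ratio was 1.22 (pair-fed) and 0.914 (ethanol-fed), a change of -0.42 (-0.72 to -0.12). Relative to miR-15a-5p, miR-15b-5p was therefore higher in the ethanol-fed library of one table and lower in that of the other. Both intervals for counting error keep these signs. The ratio of miR-16-5p to miR-15a-5p was 25.1 and 20.3 in experiment 1 and 37.2 and 36.6 in experiment 2.

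The 5p strands of the chromosome 11 cluster come from *Mir195a* and *Mir497*. miR-195a-5p had 117 and 124 reads in experiment 1 (28.1 and 28.8 RPM, log2 ratio 0.04, -0.33 to 0.40) and stood at 35.1 and 33.9 RPM in experiment 2 (-0.05, -0.25 to 0.16). Both intervals include 0, and no difference in miR-195a-5p was detectable at this depth. miR-497a-5p had 38 and 49 reads in experiment 1 (9.11 and 11.4 RPM, log2 ratio 0.31, -0.29 to 0.93) and stood at 23.6 and 19.1 RPM in experiment 2 (-0.30, -0.57 to -0.04). The reads of miR-195a-5p over those of its cluster mate miR-497a-5p were 3.08 and 2.53 in experiment 1 and 1.49 and 1.77 in experiment 2. The interval of the change in this ratio includes 0 in both experiments (-0.99 to 0.43 and -0.08 to 0.59 on the log2 scale).

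miR-322-5p, from the X chromosome cluster, had 57 and 63 reads in experiment 1 (13.7 and 14.6 RPM, log2 ratio 0.09, -0.42 to 0.61). It stood at 17.5 and 13.4 RPM in experiment 2 (-0.38, -0.69 to -0.07), lower in the ethanol-fed library. The 3p strands were lower in the ethanol-fed library of both experiments. miR-322-3p had 104 and 65 reads in experiment 1 (24.9 and 15.1 RPM, log2 ratio -0.72, -1.17 to -0.28) and stood at 97.7 and 91.1 RPM in experiment 2 (-0.10, -0.23 to 0.03). miR-195a-3p had 54 and 39 reads in experiment 1 (12.9 and 9.04 RPM, log2 ratio -0.51, -1.11 to 0.07) and stood at 18.2 and 15.6 RPM in experiment 2 (-0.22, -0.52 to 0.07). Of these 4 intervals of 3p strands, that of miR-322-3p in experiment 1 alone leaves out 0.

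**Figure D2:**
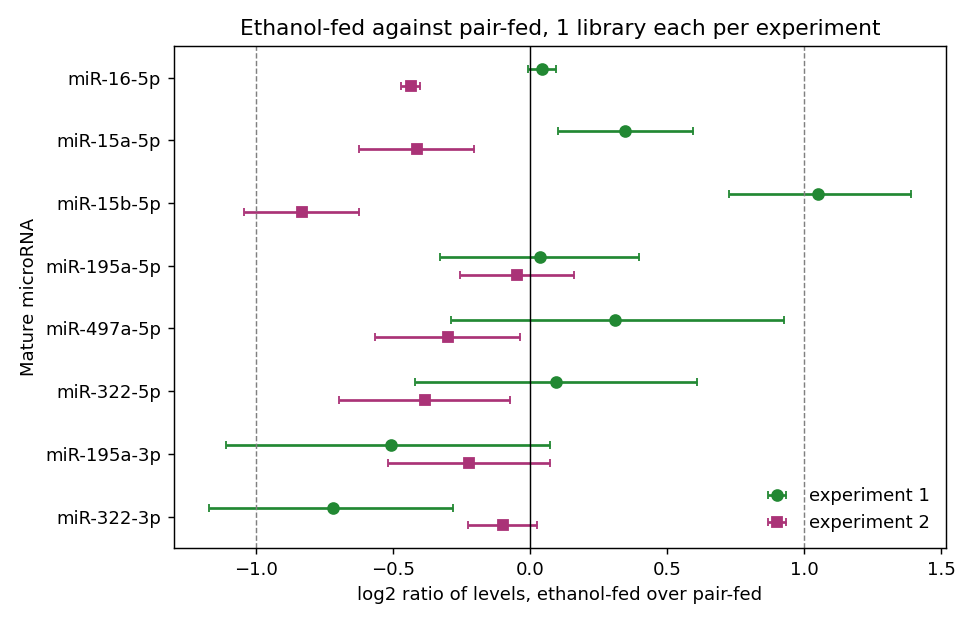
Log2 ratio of the ethanol-fed over the pair-fed level for each member in experiment 1 (green circles) and experiment 2 (purple squares), with 95% intervals for counting error, the dashed lines marking a 2-fold difference. miR-15b-5p lies at 1.05 in experiment 1 and -0.83 in experiment 2, and miR-195a-5p lies near 0 in both.

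A microRNA was counted as at least 2-fold apart when the absolute log2 ratio was 1 or more, with at least 10 reads in both libraries together. All 8 members passed that minimum in both experiments. In experiment 1, 1 of the 8 members was at least 2-fold higher, miR-15b-5p, and none was at least 2-fold lower. Among all 302 microRNAs tested there, 12.6% were at least 2-fold higher and 12.9% at least 2-fold lower, so 1 of 8 is near the background at this minimum. With a minimum of 100 reads, 10 of 158 were at least 2-fold higher. miR-15b-5p was still the 1 member called, with miR-497a-5p and miR-195a-3p under that minimum. In experiment 2, none of the members was 2-fold apart in either direction, against 10.7% higher and 15.1% lower among 469. The median log2 ratio of the 8 members was 0.07 in experiment 1, beside -0.01 over all microRNAs tested, and -0.34 in experiment 2, beside 0.00. In experiment 1, 6 members were above 0 and 2 below, while 48.7% of all microRNAs tested there were above 0. Of the 6, miR-16-5p, miR-195a-5p, miR-497a-5p and miR-322-5p have intervals that include 0. The value of miR-195a-5p came to 0.00 when miR-192-5p, the most abundant microRNA, was left out of the total. In experiment 2, 0 were above and 8 below, while 50.3% of all microRNAs tested there were above 0. The members that share a primary transcript are not independent of each other.

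**Figure D3:**
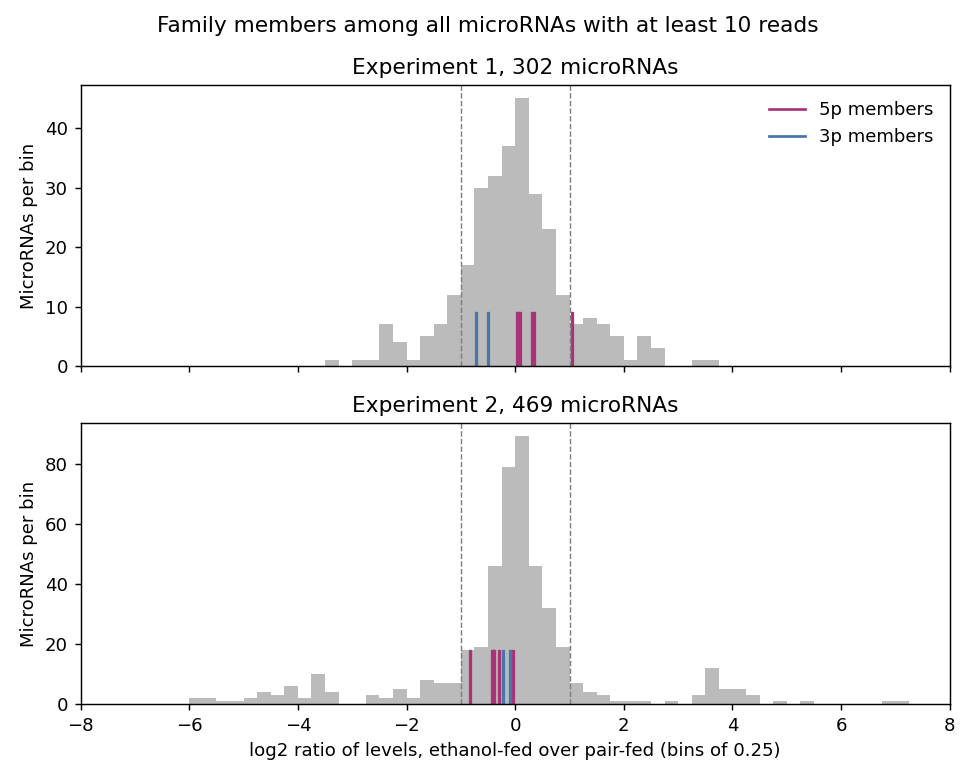
Number of microRNAs per bin of 0.25 in the log2 ratio (ethanol-fed to pair-fed) in each experiment, with the 5p members (purple) and 3p members (blue) as vertical marks and dashed lines at 2-fold. In experiment 1 the 5p members lie at or above 0 and the 3p members below it, and in experiment 2 all 8 lie between -0.83 and -0.05.

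The strands of each hairpin were then compared within libraries. The *Mir322* hairpin is printed with its 5p and then its 3p strand in capitals, because its 3p strand outnumbered the strand that carries the family seed.
Mir322: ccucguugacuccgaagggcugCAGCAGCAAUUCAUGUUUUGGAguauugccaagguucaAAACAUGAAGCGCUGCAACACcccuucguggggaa

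miR-322-5p made up 35.4% of the reads of both strands in the pair-fed library of experiment 1 (28.4% to 43.1%) and 49.2% in the ethanol-fed library (40.7% to 57.8%). In experiment 2 it made up 15.2% (13.3% to 17.3%) and 12.8% (11.0% to 14.9%), so that the 3p strand was 5.59-fold and 6.80-fold more abundant. The 5p over 3p ratio was 1.77-fold higher in the ethanol-fed library of experiment 1, a change of 0.82 on the log2 scale (0.14 to 1.51). In experiment 2 the change was -0.28 (-0.62 to 0.05), and its interval includes 0.

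The *Mir195a* hairpin had the opposite bias, with the family seed on the more abundant strand in all 4 libraries.
Mir195a: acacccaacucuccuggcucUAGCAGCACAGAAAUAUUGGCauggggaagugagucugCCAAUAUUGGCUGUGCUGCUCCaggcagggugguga

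miR-195a-5p made up 68.4% and 76.1% of the reads of both strands in experiment 1 and 65.8% and 68.5% in experiment 2, pair-fed first. Within each experiment the intervals overlap, from 61.1% to 74.9% and from 69.0% to 82.0% in experiment 1. The interval of the change in the 5p over 3p ratio includes 0 in both experiments (-0.14 to 1.25 and -0.19 to 0.54 on the log2 scale). The 3p strands of the miR-15 genes were nearly unread in experiment 1, with 0 and 5 reads for miR-15a-3p and 0 and 2 reads for miR-15b-3p, where 0 reads allow up to 0.719 RPM in the pair-fed library. In experiment 2 they were at 4.53 and 2.31 RPM (miR-15a-3p) and at 12.8 and 8.87 RPM (miR-15b-3p). The 5p strand accordingly made up 89.5% and 92.6% of the *Mir15a* reads and 78.7% and 74.9% of the *Mir15b* reads in experiment 2.

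**Figure D4:**
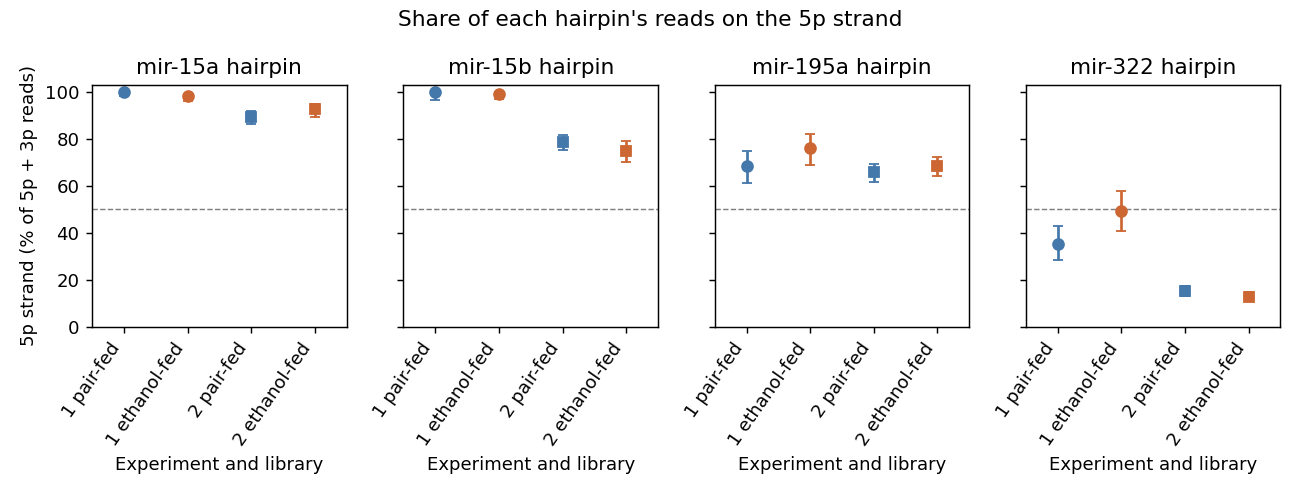
Share of the 5p strand in the reads of both strands of the mir-15a, mir-15b, mir-195a and mir-322 hairpins, in percent, for the pair-fed (blue) and ethanol-fed (orange) libraries of experiments 1 (circles) and 2 (squares), with 95% Wilson intervals and a dashed line at equal strands. The mir-322 hairpin lies under 50% in all 4 libraries, though with an interval that reaches 57.8% in the ethanol-fed library of experiment 1.

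The 3p strands of the miR-16 genes differ in sequence, as printed above, and so separate the copies that miR-16-5p cannot. In experiment 2, miR-16-1-3p of the *Dleu2* cluster had a pair-fed level of 136 RPM and an ethanol-fed level of 104 RPM (log2 ratio -0.39, -0.50 to -0.27). miR-16-2-3p of the *Smc4* cluster stood at 3.51 and 1.39 RPM (-1.29, -2.19 to -0.49), so that the former was 38.7-fold and 75.0-fold more abundant. In experiment 1, miR-16-1-3p had 22 and 11 reads (5.28 and 2.55 RPM, log2 ratio -0.99, -2.07 to -0.03) and miR-16-2-3p had 0 and 2. Which gene supplied more of miR-16-5p cannot be read from these strands, since the share of 3p strands kept can differ between hairpins.

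The other strands and cluster mates of the family, together with miR-195b of chromosome 2, were examined as a list of 18 names. Names from the same hairpin or cluster are not independent of each other. In experiment 1, 10 of them were listed and 6 had at least 10 reads. Of these 6, 2 were above and 4 below 0, beside 48.7% above 0 over all microRNAs tested, with a median log2 ratio of -0.68. In that experiment 0 were at least 2-fold higher and 2 at least 2-fold lower (miR-503-3p, at 9 and 1 reads, and miR-450a-5p). Over all microRNAs tested, 12.6% were higher and 12.9% lower. In experiment 2, 12 had at least 10 reads, with 2 above and 10 below 0, beside 50.3% above 0 over all microRNAs tested, and a median of -0.30. The intervals of miR-503-5p, miR-503-3p, miR-351-5p, miR-542-3p, miR-450a-5p, miR-450b-5p and miR-450b-3p include 0 there. Again 0 were at least 2-fold higher and 2 lower, beside 10.7% higher and 15.1% lower over all microRNAs tested. The 2 lower ones were miR-16-2-3p and miR-450a-1-3p. The latter was at 1.02 RPM against a listed 0, which can hide up to 0.92 RPM, so a 2-fold difference is not shown for it. Of the X chromosome neighbours of *Mir322*, miR-503-3p stood at 13.1 and 11.3 RPM in experiment 2 (log2 ratio -0.22) and miR-450b-5p at 9.06 and 7.86 RPM (-0.20). miR-351-5p, of the miR-125 seed group, stood at 72.3 and 72.5 RPM there (log2 ratio 0.00), and at 131 and 101 RPM in experiment 1 (-0.38, -0.56 to -0.20). miR-450a-5p stood at 297 and 302 RPM in experiment 2 (0.02) and had 20 and 8 reads in experiment 1 (-1.27, -2.52 to -0.22). miR-542-3p stood at 29.9 and 29.2 RPM in experiment 2 (-0.03) and had 35 and 53 reads in experiment 1 (0.54, -0.06 to 1.16). miR-503-5p (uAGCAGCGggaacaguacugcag), from the hairpin next to *Mir322*, stood at 5.83 and 4.44 RPM in experiment 2 (-0.39, -0.93 to 0.15) and was not listed in experiment 1.

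Marker microRNAs of other cells were compared with the family because miR-16 is abundant in blood. Of the 4 red cell markers (miR-486a-5p, miR-451a and both strands of miR-144), 4 were higher in the ethanol-fed library of experiment 1. Their median log2 ratio was 1.68 and their summed level 11559 and 33915 RPM, of which miR-486a-5p alone gave 11512 and 33721 RPM. In experiment 2 all 4 were lower in the ethanol-fed library, the median being -0.68, with a summed level of 1826 and 1152 RPM. To that sum miR-451a gave 873 and 514 RPM and miR-486a-5p 818 and 540 RPM. None of the 4 was at 0 in any library. The red cell list thus has the same signs as miR-15a-5p and miR-15b-5p in both experiments. The most abundant member, miR-16-5p, had a log2 ratio of 0.04 (-0.01 to 0.10) in experiment 1 and -0.43 in experiment 2. The part of the red cell list in the family's values was not tested. The white cell list was lower in both, in 5 of 5 members with at least 10 reads in experiment 1 (median -0.55, summed level 417 and 346 RPM, miR-155-5p at 0 in the pair-fed library) and in 6 of 6 in experiment 2 (median -0.82, 898 and 481 RPM). Its part was not tested either.

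The endothelium list of miR-126a-3p and miR-126a-5p was higher in 2 of 2 members in both experiments, with medians of 0.34 and 0.20. The mesenchyme list was higher in 4 of 5 members in experiment 1 (median 0.62) and in 2 of 5 in experiment 2 (median 0.00). The hepatocyte list was higher in 2 of 5 members in each, with medians of -0.06 and -0.09. Of the pancreas list, only miR-375-3p had at least 10 reads in experiment 1 (log2 ratio -0.84), whereas 4 of 4 counted as at least 2-fold higher, with 1 read added to each value, in the ethanol-fed library of experiment 2, where the list summed to 5.92 and 113 RPM and the pair-fed values of miR-216a-5p and miR-216b-5p were 0, so that no fold is given for them. The part of these lists in the family's values was not tested.

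**Figure D5:**
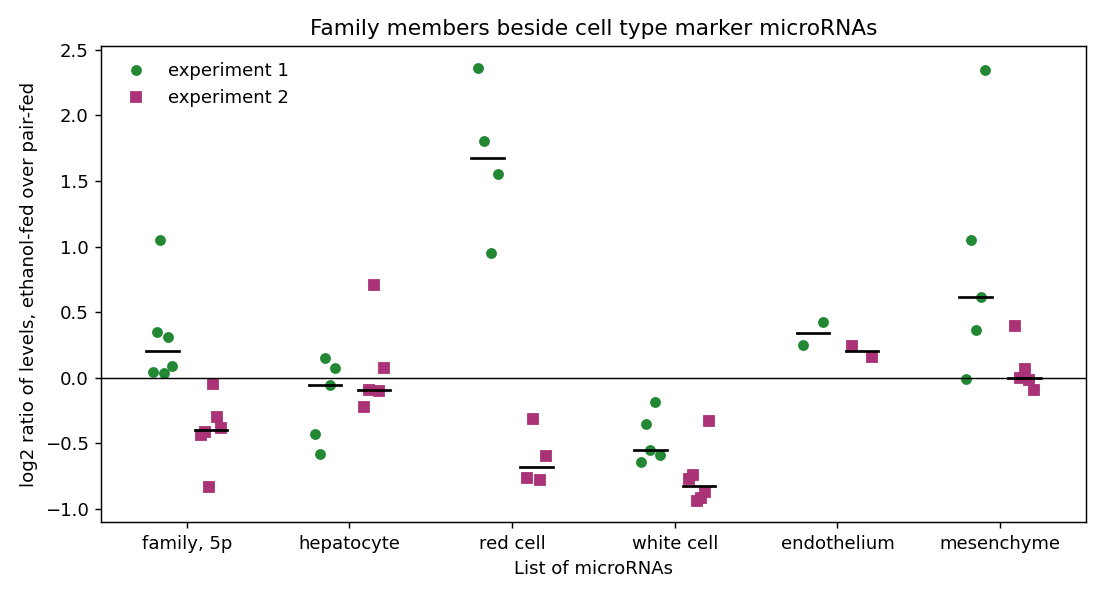
Log2 ratio, ethanol-fed to pair-fed, of the 6 seed-sharing members and of marker microRNAs of 5 cell types with at least 10 reads (1 point each, bars at the median), in experiment 1 (green circles) and experiment 2 (purple squares); the pancreas list is left out. The red cell markers and the family members lie above 0 in experiment 1 and below 0 in experiment 2, miR-195a-5p being at 0 in experiment 1 once miR-192-5p is left out of the total.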

How the data were processed

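Small RNA of whole liver was size-selected on a gel, amplified by RT-PCR and sequenced by the authors. Which aligner, counter, annotation and filters were used is not given in the sources used here. The GEO labels list a kit for RNA libraries and the build mm8. For experiment 1 the deposited values are unnormalized counts per mature microRNA, and for experiment 2 they are RPM, with column sums of 999899 and 999896. The second table also holds the authors' log2 fold changes and p-values, which were not used. Columns were assigned to groups by their names.

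Reads of experiment 2 were estimated from the step of its low values, 98.0% and 97.3% of which (under 60 RPM) were within 0.1 of a whole step. Log2 ratios (ethanol-fed to pair-fed) were computed after adding 1 read per library, for microRNAs with at least 10 reads in both libraries together, which understates the difference of microRNAs with few reads. Intervals were computed from the reads without the added read. For a change in the ratio of 2 microRNAs the interval came from the log of the 4 read numbers. With 1 library per group, no model of counts was fitted and no p-value was computed. The functions were checked on simulated data. Likeness of patterns was the largest absolute difference of log2 levels over the 4 libraries, each microRNA centred on its mean.

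The members, the lists and the tests were chosen with earlier results of these data known. Named microRNAs were the members, their other strands and cluster mates, all names with the same seed, and the 2 most alike in pattern to each 5p member; markers were named with their lists. The alternatives comprised median-of-ratios size factors, raw values for experiment 1, a total without the most abundant microRNA, 0.1 read as pseudocount, no minimum, a minimum of 100 reads, zeros of experiment 2 at the lowest listed value, and the sum without miR-16-5p. Wilson intervals came from statsmodels 0.14.6 and figures from matplotlib 3.10.9, under Python 3.11.15 with pandas 2.3.3 and numpy 2.4.6.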

Additional observations from a re-analysis of the deposited data

Results flagged for a closer look

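In 3 members the log2 ratios had opposite signs in the 2 experiments and intervals for counting error that did not overlap. The log2 ratio of miR-15b-5p in experiment 1 exceeded that in experiment 2 by 1.88, that of miR-15a-5p by 0.76 and that of miR-16-5p by 0.48. The interval of miR-16-5p in experiment 1 includes 0. With 1 library per group in each table, the difference between experiments was not tested against the spread between animals, and experiment and library cannot be told apart.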

How the results depend on the processing

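The log2 ratio of the summed 5p members ranged from 0.05 to 0.13 (experiment 1) and from -0.44 to -0.43 (experiment 2) under the other scalings, the smaller pseudocount and, in experiment 2, zeros at the lowest listed value. Without miR-16-5p the sum of experiment 1 moved to 0.44, which follows from leaving out the most abundant member, and that of experiment 2 was -0.41. The count of members at least 2-fold apart stayed at 1 in experiment 1 and 0 in experiment 2 under all alternatives run for it. Every member already passed the minimum of 10 reads and none was at 0. Leaving out the minimum, or setting zeros to the lowest listed value, therefore could not change this count. All 94 values of single members under the alternatives stayed within the counting interval of the reported value. Those under another minimum, or with zeros at the lowest listed value, equal the reported value by construction. A minimum does not alter a ratio, and no member was at 0. Only the other scalings and the smaller pseudocount could move a single member. The scalings shifted the median log2 ratio of all microRNAs by at most 0.05. The minimum of reads moved the background: in experiment 1, 99 were higher and 102 lower among 484 with no minimum, and 10 and 9 among 158 with a minimum of 100 reads. In experiment 2 these were 12 and 24 among 298 with a minimum of 100 reads, and 22 and 49 among 469 with zeros at the lowest listed value. No comparison paired over the 2 tables was run, since they were scaled apart. The sources used here do not match them to animals or to the paper's 2 independent experiments. Deeper reading of the same libraries would narrow the counting intervals but give no spread between mice.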

Other observations

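Among microRNAs with at least 100 reads in each of the 4 libraries, 112 or 113 candidates per member, the pattern of miR-16-5p over the libraries was most like that of miR-25-3p, with a largest difference of 0.25 on the centred log2 scale. miR-25-3p, of the miR-106b cluster, stood at 1257 and 1307 RPM in experiment 1 and at 987 and 699 RPM in experiment 2, pair-fed first. It was also the nearest to miR-15a-5p (0.28). The next in order were miR-671-3p for miR-16-5p (0.34) and miR-146b-5p for miR-15a-5p (0.36).

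The nearest to miR-15b-5p was miR-127-3p (0.46), an imprinted microRNA of the Meg3 region, at 88.0 and 253 RPM in experiment 1 and 272 and 84.7 RPM in experiment 2, followed by miR-148a-5p (0.49). miR-195a-5p was closest to miR-671-3p (0.09), which was nearly level over the libraries at 37.2, 37.3, 42.0 and 39.9 RPM, and then to miR-1839-5p (0.09). miR-497a-5p was closest to miR-92a-3p (0.08), of the miR-17-92 cluster and its paralog, and then to miR-28a-5p (0.15). miR-322-5p was closest to miR-671-3p (0.17) and then to the family member miR-16-5p (0.18). These distances describe 4 libraries of 2 tables that were scaled apart, so they include differences between the tables, and carry no test.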
